A study of Mus musculus with 4 samples.

Results

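The genes described here encode the factors that start and drive protein synthesis, the eukaryotic translation initiation factors (*Eif1* to *Eif6* families) and the translation elongation factors (*Eef1* and *Eef2* families), in mouse CD4 T cells that carried a Tox retrovirus or its empty vector. Members were taken by symbol, leaving out the eIF2 kinases whose symbols start with *Eif2ak*, and a gene had to hold at least 10 expected counts in at least 2 libraries. Of 24369 genes listed, 60 matched by name and 58 reached the minimum. The other 2 were *Eef1a2*, the muscle and neuron form of elongation factor 1A, with rounded counts of 0 and 0 in EV RV against 0 and 1 in Tox RV, and *Eif2s3y*, the Y-linked eIF2 gamma gene, with 1 and 0 in EV RV against 0 and 5 in Tox RV.

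Initiation begins when eIF2, loaded with GTP and the initiator tRNA, joins the small ribosomal subunit together with eIF1, eIF1A, eIF3 and eIF5. The cap-binding protein eIF4E, the scaffold eIF4G and the helicase eIF4A bring the mRNA, the ribosome scans to a start codon, and eIF5B joins the large subunit. The exchange factor eIF2B reloads eIF2 with GTP, the 4E-BPs hold eIF4E away from eIF4G until the kinase mTOR phosphorylates them, and eEF1 and eEF2 then deliver aminoacyl-tRNAs and move the ribosome along. Naïve T cells have low rates of protein synthesis and raise them strongly on activation, so this machinery is well expressed in dividing T cells.

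Both groups came from naïve CD4 T cells of the spleen of wild-type C57BL/6 mice, which were activated under unpolarized conditions with antibodies to CD3 (bound to the plate) and CD28 (in solution) and with human IL-2. On day 2 the cells were transduced with MSCV-IRES-eGFP (EV RV) or with MSCV carrying Tox before the IRES-eGFP (Tox RV), on day 5 they were restimulated, and GFP+ cells were sorted, so that both groups share activation, infection and restimulation and differ in the Tox insert, which was expressed from the viral promoter. There were 2 libraries in each group, from 2 individual mice, the age of which is not given in the sources used here.

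Depth ranged from 46989997 to 74548723 expected counts. *Tox* was at 11.7 and 5.73 CPM (counts per 1000000, TMM-scaled) in EV RV and at 121 and 99.9 CPM in Tox RV, as the labels have it. *Cd3e*, *Cd3g*, *Cd4*, *Cd28* and *Cd5* were present in all libraries, the CD8 genes summed to between 3.88 and 4.77 CPM, *Ms4a1* was at 0 everywhere and the 4 B cell genes summed to at most 1.62 CPM, and the 5 myeloid genes summed to at most 1.40 CPM. Of the 4 NK cell genes, *Ncr1* was at 0 and the sum was 52.0 and 12.6 CPM in EV RV and 28.1 and 7.04 CPM in Tox RV. EV RV replicate 1 stood apart from the other libraries, at -53.8 on the first principal component (58.0% of the variance) against 5.70 to 25.8, and the precursor of ribosomal RNA (*Rn45s*) took 24.7% of its counts, against 11.97% in EV RV replicate 2, 10.3% in Tox RV replicate 1 and 7.14% in Tox RV replicate 2. Group medians and the results that rest on this library are therefore given with and without it, and the part that ribosomal RNA or NK cell RNA had in them was not tested.

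The promoters of several members hold the letters CACGTG, the palindromic E-box that MYC with MAX, USF and other factors can bind, and MYC is a known regulator of translation factor genes in growing cells. RefSeq promoter sequences (build GRCm38.p6, from 250 bases before to 50 after the annotated start) were matched for 44 of the 58 members. The motif, which reads the same on both strands, was found in 12 of the 44 (27.3%), where a gene counts if any of its promoters holds it. By the same count it was found in 11.2% of the 10628 genes tested that have such a sequence. Among all 27025 genes with a RefSeq promoter the share was 8.09%. The 6 windows that follow were chosen to show it in 1 or more genes of the start-codon, cap-binding, eIF3 and elongation factor groups, with the motif in capitals, each on the strand of its gene.
Eif1b, chr9:120492570-120492599, plus strand: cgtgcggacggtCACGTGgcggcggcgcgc
Eif4e, chr3:138527192-138527221, plus strand: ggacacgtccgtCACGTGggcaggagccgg
Eif4g1, chr16:20672646-20672705, plus strand: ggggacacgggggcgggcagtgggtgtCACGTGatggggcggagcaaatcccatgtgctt
Eif4a1, chr11:69672580-69672639, minus strand: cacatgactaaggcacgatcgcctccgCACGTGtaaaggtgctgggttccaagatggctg
Eif3f, chr7:108934320-108934379, plus strand: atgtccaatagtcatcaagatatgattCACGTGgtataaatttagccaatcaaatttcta
Eef2, chr10:81176561-81176620, plus strand: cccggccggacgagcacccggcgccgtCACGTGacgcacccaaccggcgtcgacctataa
The motif started 24 bases before the RefSeq start in *Eif1b*, 64 in *Eif4e* (which holds a further match 228 bases before), 54 in *Eif4g1* (with a further match 15 bases past the start), 189 in *Eif4a1*, 68 in *Eif3f* and 43 in *Eef2*. In the GENCODE annotation the windows of *Eif1b* and *Eif4e* lie in the 5′ UTR of another transcript of the same gene and are cut to 30 bases, that of *Eif4g1* lies in an intron of a longer transcript, and the other 3 lie upstream of the gene. The 12 genes with the motif were 8 higher and 4 lower in Tox RV, at a median of 0.067 on the log2 scale, and the 32 without it 25 higher and 7 lower, at a median of 0.16. With EV RV replicate 1 left out, the first set had 6 higher and 6 lower and the second 16 higher and 16 lower. *Myc* itself was at 226 and 166 CPM in EV RV and 147 and 117 CPM in Tox RV (log2 fold change -0.57, standard error, SE, 0.23, adjusted p = 0.897 by the quasi-likelihood test of edgeR with Benjamini-Hochberg adjustment). The log2 fold change of *Myc* was -0.33 without EV RV replicate 1. A match describes letters in a window and not a bound site.

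Levels differed widely between members, which is best seen in TPM (transcripts per 1000000), since it allows for transcript length. *Eef1a1*, which brings aminoacyl-tRNAs to the ribosome, was at 13903 and 13859 TPM in EV RV and 15166 and 14945 TPM in Tox RV, above all other members in each library. *Eef2*, the translocase, followed at 2757 and 2259 TPM in EV RV and 2684 and 2461 TPM in Tox RV. These 2 elongation factor genes gave more transcripts than the 50 initiation factor genes together. All 58 members summed to 2.71% and 2.75% of the transcripts in EV RV and to 2.92% and 2.84% in Tox RV.

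Next in level came *Eef1g*, *Eif4a1*, *Eif5a* and *Eef1b2*. The subunits of eIF3, the large complex that holds the small ribosomal subunit and the mRNA together, kept close to each other: 12 of the 14 had a mean TPM between 138 and 367, and the exceptions were the loosely attached subunit genes *Eif3j1* (59.3) and *Eif3j2* (2.72). The 5 subunits of eIF2B were at 34.5 to 74.8 mean TPM, below the 3 subunits of its substrate eIF2, at 99.8 to 233. Lowest of all were *Eif4e1b*, a form of eIF4E known from oocytes, at 0.370 and 0.120 TPM in EV RV and 0.190 and 0.110 TPM in Tox RV, *Eif3j2*, and *Eef2k*, the kinase that inhibits eEF2, at 4.88 mean TPM.

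**Figure D1:**
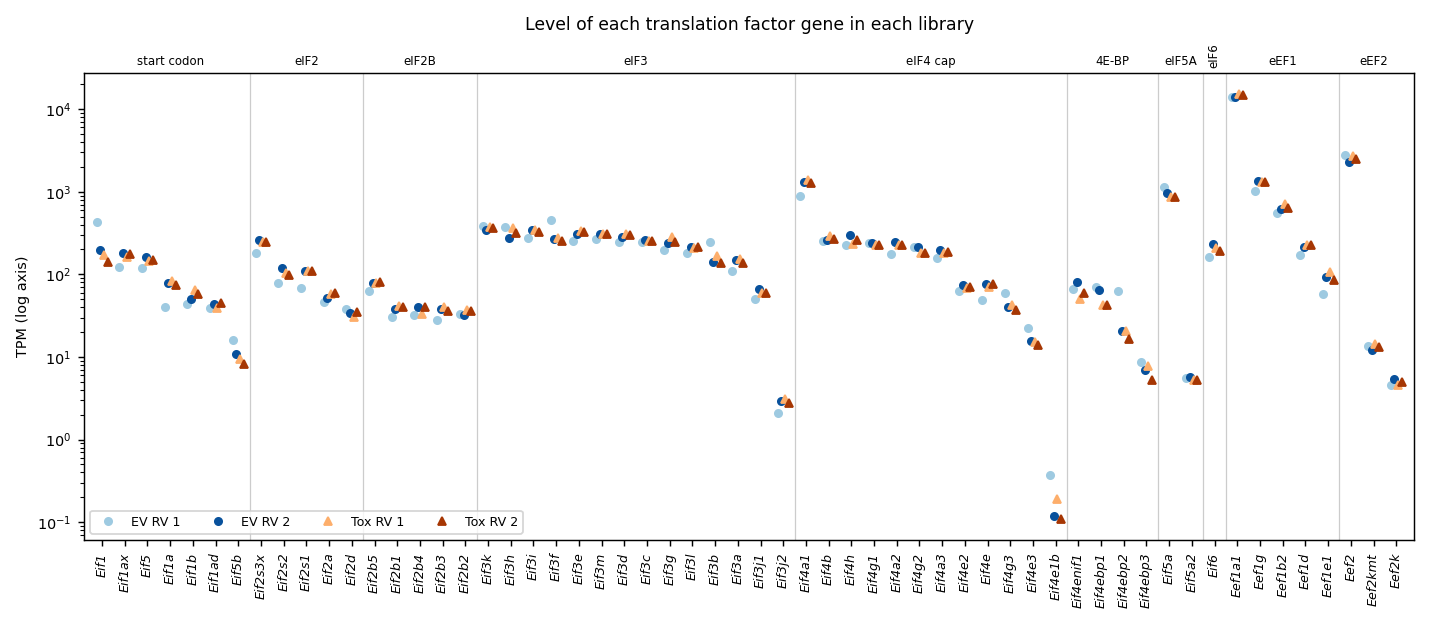
TPM on a log axis of each of the 58 translation factor genes, grouped by role and ordered by mean level within a role, with 1 point for each of the 4 libraries (circles EV RV, triangles Tox RV). The 4 points of a gene mostly lie close together compared with the distances between genes, *Eef1a1* is highest, at a mean of 14468 TPM, and *Eif4e1b* is lowest, at 0.198 TPM.

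Tox RV cells were compared with EV RV cells to ask whether forced Tox changed the mRNA of the translation factors. By the quasi-likelihood test of edgeR none of the 58 had an adjusted p-value below 0.05, as 0 of the 14143 genes tested (0%) had, and their adjusted p-values ranged from 0.897 to 0.993. At an unadjusted p-value below 0.05 there was 1 member higher in Tox RV (*Eif1b*), beside 1.07% of all genes, and there were 2 lower (*Eif1* and *Eif4ebp1*), beside 2.55%. DESeq2 called 0 members and 22 genes in all (0.156%), and gave 3 members an unadjusted p-value below 0.05 (4.31% of all genes). These were *Eif4ebp1*, *Eif1* and *Eif4ebp2*, while *Eif1b* was at an unadjusted p = 0.0609. There were 42 members higher (72.4%, beside 50.4% of all genes) and 16 lower in Tox RV, with a median of 0.14 for the log2 fold change and a range from -1.07 to 0.49, beside a median of 0.0036 over all genes tested. Differences were small for most: 34 members (58.6%) lay within 0.25 of 0 on the log2 scale, beside 58.1% of all genes. In bulk samples such as these, fewer cells of a type and less RNA per cell cannot be told apart.

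The Tox RV libraries were both above the EV RV pair in 17 members (29.3%), beside 18.6% of all genes, and below them in 6 (10.3%), beside 17.4%. The 17 were *Eef1a1*, *Eef1b2*, *Eef1d*, *Eef2kmt*, *Eif1b*, *Eif2a*, *Eif2b1*, *Eif2b2*, *Eif2b5*, *Eif2s1*, *Eif3d*, *Eif3e*, *Eif3g*, *Eif3k*, *Eif3m*, *Eif4a1* and *Eif4b*, and the 6 were *Eif1*, *Eif4ebp1*, *Eif4enif1*, *Eif4g2*, *Eif5a* and *Eif5b*. With TPM in place of TMM-scaled CPM, a choice made after seeing the data, 11 members lay above and 9 below. Likewise 25 lay above and 4 below when libraries were scaled by their totals, and 13 above and 8 below with *Rn45s* left out of those totals. Scaling by totals put the median log2 fold change of all genes at 0.12. The shares of all genes above and below under these choices are not given here, so these counts do not set the members apart.

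Much of this pattern came with 1 library. EV RV replicate 1 was the lowest of the 4 libraries in 40 members (69.0%), beside 37.0% of all genes, and the highest in 11 (19.0%), beside 37.0%. The median log2 distance of the members from their mean over the libraries was -0.24 in EV RV replicate 1, 0.056 in EV RV replicate 2, 0.10 in Tox RV replicate 1 and 0.075 in Tox RV replicate 2. The replicates of EV RV thus differed by a median of 0.388 on the log2 scale in the members (0.382 in all genes), and those of Tox RV by 0.0977 (0.170 in all genes). Without EV RV replicate 1 the median log2 fold change of the members was 0.0035, 30 members were higher and 28 lower, 22 of the 58 changed sign (37.9%, beside 31.4% of all genes), and 50 lay within 0.25 of 0 (86.2%, beside 64.4%). In that fit none had an adjusted p-value below 0.05 with edgeR (0.00685% of all genes), and 2 had an unadjusted p-value below 0.05 (*Eif4ebp1* and *Eif4enif1*), where 7.49% of all genes had. Without EV RV replicate 2 the median was 0.32, 600 of 14408 genes passed (4.16%), and 6 of them were members, of which *Eif1a*, *Eif2s1*, *Eif4a1* and *Eif4e* were higher and *Eif1* and *Eif4ebp2* lower in Tox RV.

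**Figure D2:**
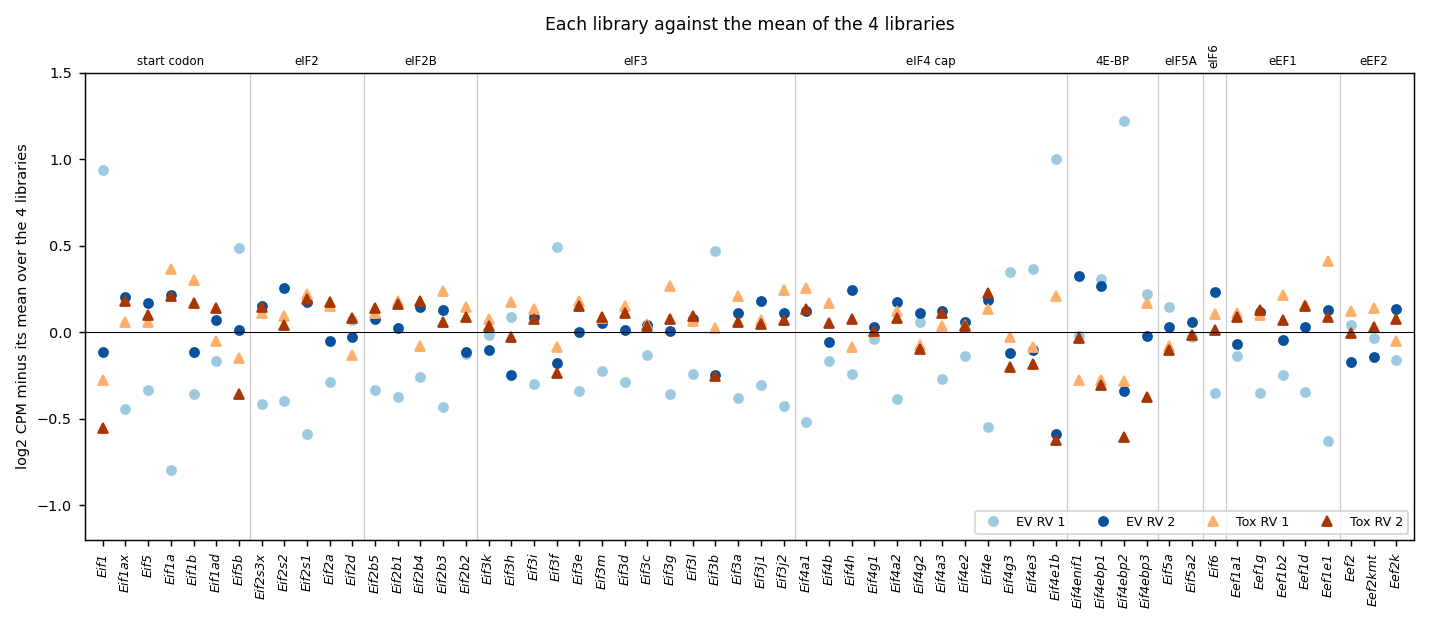
For each of the 58 genes, log2 CPM of each library minus the gene's mean over the 4 libraries, with genes grouped by role (circles EV RV, triangles Tox RV). The pale circles of EV RV replicate 1 lie lowest in 40 genes and far above the rest in *Eif1*, *Eif4e1b* and *Eif4ebp2*, while the other 3 libraries mostly lie nearer to the line at 0.

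The eIF4E-binding proteins block cap-dependent initiation, and the group of their 3 genes with the eIF4E transporter gene *Eif4enif1* had all 4 members lower in Tox RV (median log2 fold change -0.45, and -0.29 without EV RV replicate 1). *Eif4ebp1* (chromosome 8 of mm10, 27260329 to 27276674, plus strand) was at 34.9 and 33.9 CPM in EV RV and 23.2 and 22.8 CPM in Tox RV. The replicates lay almost on top of each other, at 34.4 ± 0.667 CPM (SD, n = 2) in EV RV and 23.0 ± 0.296 CPM (SD, n = 2) in Tox RV, and the groups did not overlap. The log2 fold change was -0.58 (SE 0.16, unadjusted p = 0.0131, adjusted p = 0.897 by the quasi-likelihood test of edgeR with Benjamini-Hochberg adjustment), and dropping any 1 library left it between -0.60 and -0.56. It had the lowest unadjusted p-value among the 58.

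*Eif4ebp2* (chromosome 10, 61428491 to 61452661, minus strand), the second of the binding proteins, was at 62.3 and 21.1 CPM in EV RV and 21.9 and 17.6 CPM in Tox RV. EV RV replicate 1 was alone in being high, and the groups overlapped. Its log2 fold change of -1.07 (SE 0.49) was the largest in size among the members, and became -0.10 without EV RV replicate 1 and -1.65 without EV RV replicate 2. *Eif4ebp3*, the least abundant of the family at 7.14 mean TPM, was at 5.19 and 4.39 CPM in EV RV and 5.01 and 3.43 CPM in Tox RV, with overlapping groups. *Eif4enif1*, whose protein 4E-T carries eIF4E into the nucleus and to P-bodies, was at 141 and 179 CPM in EV RV and 118 and 139 CPM in Tox RV. Both Tox RV libraries were lower, by a narrow margin, at a log2 fold change of -0.32 (SE 0.20) that became -0.49 without EV RV replicate 1 and -0.13 without EV RV replicate 2.

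The target of these proteins, *Eif4e* (chromosome 3, 138526179 to 138559696, plus strand), was at 79.0 and 131 CPM in EV RV and 126 and 135 CPM in Tox RV. Here EV RV replicate 1 was alone in being low, the groups overlapped, and the log2 fold change of 0.32 (SE 0.27) became -0.0099 without that library and 0.73 without EV RV replicate 2. Of its relatives, *Eif4e2*, which binds the cap without driving initiation, was at 85.8 and 98.3 CPM in EV RV and 97.2 and 96.9 CPM in Tox RV. *Eif4e3*, a further cap-binding form, was at 31.7 and 23.0 CPM in EV RV and 23.3 and 21.7 CPM in Tox RV, again with EV RV replicate 1 apart. *Eif4e1b*, with 6 to 15 counts a library, had overlapping groups.

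**Figure D3:**
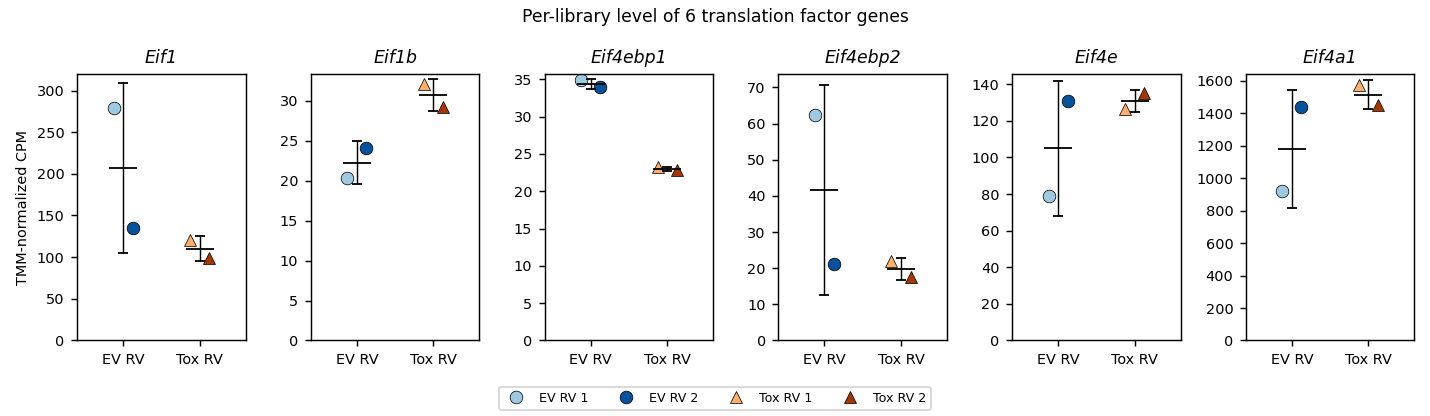
TMM-scaled CPM of *Eif1*, *Eif1b*, *Eif4ebp1*, *Eif4ebp2*, *Eif4e* and *Eif4a1* in each library (circles EV RV, triangles Tox RV), with the group mean as a bar and the SD of the 2 libraries as whiskers, each axis starting at 0. *Eif4ebp1* shows groups apart with near-equal replicates (means of 34.4 and 23.0 CPM), *Eif1b* shows groups apart with replicates that differ by less than the groups (22.2 and 30.7 CPM), and in *Eif1*, *Eif4ebp2*, *Eif4e* and *Eif4a1* the EV RV libraries lie far from each other.

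Among the factors that read the start codon, the paralogues *Eif1* and *Eif1b* lay on opposite sides, in a group of 7 genes of which 5 were higher and 2 lower (median log2 fold change 0.14). That group had 2 higher and 5 lower without EV RV replicate 1, at a median of -0.089. *Eif1* (chromosome 11, 100319885 to 100322096, plus strand), which keeps the scanning ribosome open until an AUG is met, was at 279 and 135 CPM in EV RV and 121 and 99.4 CPM in Tox RV. Both Tox RV libraries were lower than both EV RV libraries, which themselves differed by more than the group means did, at 207 ± 102 CPM (SD, n = 2) against 110.1 ± 15.0 CPM (SD, n = 2). The log2 fold change was -0.91 (SE 0.36, unadjusted p = 0.0445, adjusted p = 0.897 by the quasi-likelihood test of edgeR), -0.30 without EV RV replicate 1 and -1.34 without EV RV replicate 2. A transcript of *Emd* is 96.7% identical to *Eif1* over 662 bases, so reads there could be divided between them, and *Emd* was at 30.4 and 35.3 CPM in EV RV and 33.3 and 38.7 CPM in Tox RV.

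*Eif1b* (chromosome 9, 120492232 to 120495330, plus strand), whose protein closely resembles eIF1, was at 20.3 and 24.1 CPM in EV RV and 32.1 and 29.3 CPM in Tox RV. The Tox RV libraries were both higher, with a gap between the groups wider than that within either of them. The log2 fold change was 0.46 (SE 0.18, unadjusted p = 0.0464, adjusted p = 0.897 by the quasi-likelihood test of edgeR), and dropping any 1 library left it between 0.34 and 0.60.

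*Eif1a* on chromosome 18, which binds the ribosome's decoding site beside eIF1, had the largest positive log2 fold change of the members, 0.49 (SE 0.34), from 66.1 and 133 CPM in EV RV and 148 and 132 CPM in Tox RV. EV RV replicate 1 was low, the other 3 libraries were alike, and the value was 0.065 without it and 1.09 without EV RV replicate 2. Its X-linked twin *Eif1ax* was at 57.2 and 89.4 CPM in EV RV and 80.9 and 88.0 CPM in Tox RV, with the same library low. *Eif5b* (chromosome 1, 37998010 to 38055579, plus strand), the GTPase that joins the ribosomal subunits, was at 73.2 and 52.7 CPM in EV RV and 47.2 and 40.9 CPM in Tox RV. Its groups did not overlap, and the log2 fold change of -0.52 (SE 0.22) became -0.26 without EV RV replicate 1. *Eif5b* shares up to 419 exonic bases with *Rev1* on the other strand, where reads could be given to either gene since the sources used here do not give the strand setting.

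The eIF2 subunits, eIF2B and eIF3 were mostly higher in Tox RV, and in most of these genes EV RV replicate 1 was the lowest library. Of the 5 genes of eIF2 and related factors, 4 were higher, at a median of 0.23 on the log2 scale, and 3 were higher without EV RV replicate 1, at a median of 0.0020. *Eif2s1*, the alpha subunit that stress kinases phosphorylate, was at 124 and 210 CPM in EV RV and 216 and 212 CPM in Tox RV. The Tox RV libraries were just above EV RV replicate 2, and the log2 fold change of 0.36 (SE 0.27) became 0.025 without EV RV replicate 1 and 0.80 without EV RV replicate 2. *Eif2s3x*, the X-linked gamma subunit gene, was at 377 and 557 CPM in EV RV and 543 and 555 CPM in Tox RV, so that 3 libraries were alike. Its Y-linked counterpart had at most 5 counts, while *Xist* was at 805 to 1838 CPM in these libraries.

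All 5 eIF2B subunit genes were higher in Tox RV (median log2 fold change 0.24) and EV RV replicate 1 was the lowest library in all 5. Without it 4 of the 5 were higher and the median was 0.044. In 3 of the 5, *Eif2b1*, *Eif2b2* and *Eif2b5*, the groups did not overlap and Tox RV was the higher, beside 18.6% of all genes. With EV RV replicate 1 lowest in all 5, this separation depended on the level of EV RV replicate 2. *Eif2b1*, the alpha subunit, was at 32.4 and 42.7 CPM in EV RV and 47.7 and 47.1 CPM in Tox RV, a log2 fold change of 0.33 (SE 0.20) that became 0.14 without EV RV replicate 1. *Eif2b5*, the catalytic epsilon subunit, was at 89.8 and 119 CPM in EV RV and 123 and 125 CPM in Tox RV, above EV RV replicate 2 by a small margin. The log2 fold change of *Eif2b5*, 0.24 (SE 0.20), was 0.044 without EV RV replicate 1.

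Of the 14 eIF3 subunit genes, 12 were higher in Tox RV (median log2 fold change 0.16). In 5 of the 14 (35.7%) the groups did not overlap and Tox RV was the higher, beside 18.6% of all genes. Without EV RV replicate 1, 11 of the 14 were higher and the median was 0.031. *Eif3g*, an RNA-binding subunit, was at 109 and 139 CPM in EV RV and 167 and 146 CPM in Tox RV, with a log2 fold change of 0.34 (SE 0.20) that became 0.17 without EV RV replicate 1. *Eif3k*, the most abundant subunit by TPM, was at 164 and 155 CPM in EV RV and 175 and 170 CPM in Tox RV, a small step of 0.12 (SE 0.16) on the log2 scale that was 0.15 without EV RV replicate 1. The 2 lower genes were *Eif3f*, at 368 and 231 CPM in EV RV and 246 and 222 CPM in Tox RV, and *Eif3b*, the scaffold subunit. In both of these EV RV replicate 1 was the high library, in contrast to 10 of the other subunits in which it was the lowest. *Eif3j1* and the single-exon copy *Eif3j2* are 99.4% identical over 2379 bases, so the counts of both are uncertain. *Eif3j1* was at 69.0 and 96.4 CPM in EV RV and 89.5 and 88.2 CPM in Tox RV, and *Eif3j2* was at 2.87 and 4.18 CPM in EV RV and 4.57 and 4.05 CPM in Tox RV.

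The helicase and scaffold genes showed no common direction, with 7 of 12 cap-binding and helicase genes higher and a median difference of 0.042 on the log2 scale, and 4 of 12 higher without EV RV replicate 1 (median -0.029). *Eif4a1* (chromosome 11, 69666936 to 69672423, minus strand), the helicase that unwinds mRNA leaders, was at 923 and 1436 CPM in EV RV and 1576 and 1451 CPM in Tox RV. EV RV replicate 1 was far below the rest, the lower Tox RV library was close to EV RV replicate 2, and the log2 fold change of 0.36 (SE 0.24) became 0.069 without EV RV replicate 1 and 0.72 without EV RV replicate 2. Its paralogue *Eif4a2* was at 286 and 422 CPM in EV RV and 407 and 396 CPM in Tox RV, and *Eif4a3*, part of the exon junction complex, was at 126 and 166 CPM in EV RV and 156 and 165 CPM in Tox RV. Both overlapped between the groups, with EV RV replicate 1 lowest. Reads could be divided with other genes here too. *Eif4a3* is 95.6% identical to *Gm8994* over 1450 bases, and *Eif4a2* is 100% identical to *Snora81* over 178 bases. These other genes had mean expected counts of 92.5 (*Gm8994*) and 665 (*Snora81*).

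*Eif4g1*, the main scaffold, was among the steadiest genes, at 754 and 791 CPM in EV RV and 776 and 778 CPM in Tox RV, with a log2 fold change of 0.0086 (SE 0.15) whose sign depended on the scaling. *Eif4g2*, the relative that works without eIF4E, was at 985 and 1020 CPM in EV RV and 900 and 883 CPM in Tox RV. Both Tox RV libraries were lower, by little, at a log2 fold change of -0.17 (SE 0.15) that was -0.20 without EV RV replicate 1. *Eif4g3* was at 213 and 154 CPM in EV RV and 165 and 146 CPM in Tox RV, with overlap.

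*Eif5a* (chromosome 11, 69916714 to 69921958, minus strand), the hypusine-bearing factor that helps ribosomes through proline stretches, was at 793 and 734 CPM in EV RV and 679 and 668 CPM in Tox RV. The Tox RV libraries were the lower ones, at a log2 fold change of -0.18 (SE 0.16) and -0.13 without EV RV replicate 1. *Eif5a2*, its rare form, was at 16.3 and 17.4 CPM in EV RV and 16.5 and 16.5 CPM in Tox RV, and did not separate the groups. *Eif6*, which keeps the large subunit from joining too early, was at 132 and 197 CPM in EV RV and 181 and 170 CPM in Tox RV, again with EV RV replicate 1 alone at the bottom.

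All 5 genes of the eEF1 group, the eEF1 subunits with *Eef1e1*, were higher in Tox RV, at a median of 0.29 on the log2 scale. EV RV replicate 1 was the lowest library in all 5, and without it 4 of the 5 were higher, at a median of 0.12. *Eef1a1* (chromosome 9, 78478449 to 78489151, minus strand) was at 13653 and 14322 CPM in EV RV and 16187 and 15938 CPM in Tox RV. Its groups did not overlap, and the gap between them was wider than that within either group. The log2 fold change was 0.20 (SE 0.14) and lay between 0.16 and 0.24 when any 1 library was dropped, close to the median of the members in size. The counts of *Eef1a1* are uncertain to the extent that the copy *Gm6548*, 96.7% identical over 1166 bases, drew reads from it. *Eef2* was at 4911 and 4235 CPM in EV RV and 5197 and 4762 CPM in Tox RV, with overlapping groups and a log2 fold change of 0.12 (SE 0.16). Its kinase gene *Eef2k* was at 17.1 and 21.0 CPM in EV RV and 18.4 and 20.1 CPM in Tox RV, with means that differed by less than the replicates. The methyltransferase gene *Eef2kmt* had groups that did not overlap, at 16.3 and 15.1 CPM in EV RV and 18.3 and 17.0 CPM in Tox RV. Its log2 fold change was small, at 0.17 (SE 0.18). It shares up to 472 exonic bases with *Alg1* on the other strand, where the limit given for *Eif5b* applies.

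The mRNAs of many elongation factors and of some eIF3 subunits begin with a terminal oligopyrimidine (TOP) tract, through which mTOR and LARP1 control their translation and stability. A list of 8 such members, drawn up from general knowledge, held *Eef1a1*, *Eef1b2*, *Eef1d*, *Eef1g*, *Eef2*, *Eif3e*, *Eif3f* and *Eif3h*. Of these 7 were higher, beside 50.4% of all genes, and 1, *Eif3f*, was lower, at a median of 0.21 on the log2 scale. In 4 of the 8 the groups did not overlap and Tox RV was the higher, beside 18.6% of all genes. Without EV RV replicate 1 the median of the 8 was 0.16. In the RefSeq promoter sequences, a C at the annotated start followed by 4 pyrimidines was found in 2 of the 44 members (4.55%), *Eif3f* and *Eif2s3x*, beside 3.17% of the genes tested. Of the 8 listed genes, *Eef1d*, *Eef1g*, *Eif3e* and *Eif3h* had no promoter sequence and were not searched.

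**Figure D4:**
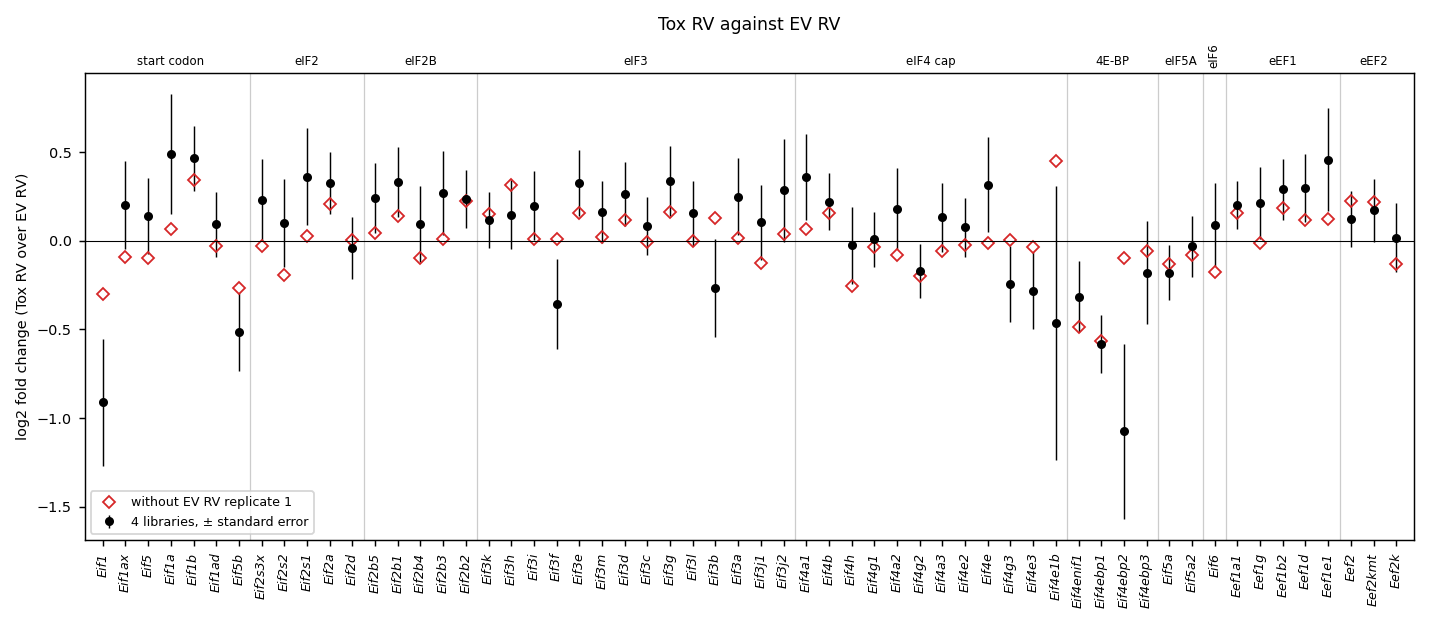
Log2 fold change of Tox RV over EV RV for each of the 58 genes by role, as black points with the standard error from edgeR's quasi-likelihood fit of the 4 libraries, and as red diamonds without EV RV replicate 1. Most diamonds lie closer to 0 than the points, the largest shift is that of *Eif4ebp2* (from -1.07 to -0.10), and those of *Eif4ebp1* and *Eif1b* stay near their points.

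Other genes that act on the same steps were described from 4 lists that hold 34 genes, the eIF2 kinases and phosphatase subunits, regulators of the cap complex with poly(A)-binding proteins, release and recycling factors, and the enzymes that make hypusine and diphthamide. Of the 34, 22 were higher and 12 lower, 0 had an adjusted p-value below 0.05 with edgeR and 0 had an unadjusted p-value below 0.05 (3.62% of all genes), and the median difference was 0.082 on the log2 scale. Without EV RV replicate 1 there were 17 higher and 17 lower, at a median of -0.0051. Both Tox RV libraries were above both EV RV libraries in 8 and below in 4, where all genes gave 18.6% and 17.4%. The lowest value, -0.83 (SE 0.40), was that of *Pabpc1*, the main poly(A)-binding protein, at 1405 and 603 CPM in EV RV and 621 and 511 CPM in Tox RV, where EV RV replicate 1 was again apart and the value without it was -0.099. *Larp1*, the TOP mRNA-binding protein, was at 673 and 594 CPM in EV RV and 531 and 446 CPM in Tox RV, lower in both Tox RV libraries (log2 fold change -0.37, SE 0.18, and -0.29 without EV RV replicate 1), and was picked out after its values were seen, as was *Pabpc1*.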

How the data were processed

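RNA-seq was carried out on 4 libraries, and groups and replicate numbers came from the sample labels. After a quality check with fastqc, the authors mapped reads to mm10 transcripts with bowtie and estimated gene levels with RSEM. The expected counts deposited by the authors are estimates per gene before any normalization, and the deposited TPM values are transcripts per 1000000, also by RSEM. A read that fits several genes is divided by RSEM's model. A further deposited table, with 4 columns of values, was not used.

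Rounded expected counts went into edgeR 4.0.16 (R 4.3.3), in which filterByExpr (minimum count 10) left 14143 genes, libraries were scaled by TMM, and glmQLFit and glmQLFTest compared Tox RV with EV RV, with Benjamini-Hochberg adjustment over all genes tested. The common biological coefficient of variation was 0.232. CPM are TMM-scaled. Standard errors (SE) of log2 fold changes came from the quasi-likelihood F statistic. DESeq2 1.42.0, the tool named in the study's methods, and limma 3.58.1 on log2(TPM + 1) and log2(TPM + 0.1) were alternatives, with other scalings, filters, a replicate block and leaving out each library. The fit was tested on simulated data with 200 changed genes. Apart from those genes the simulated libraries shared their gene means, so a library that stands apart, as EV RV replicate 1 does, was not tested. Positions are from GENCODE M21 (GRCm38, mm10).

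The members and lists were chosen with earlier results of these data known, so their counts are descriptions. Per-library values are given for the most abundant gene of each role, members at an unadjusted p-value below 0.05, the 5 largest increases and decreases among members whose groups do not overlap, and paralogue families. Marker genes of CD4, CD8, NK, B and myeloid cells were descriptions. P-values set the difference between groups against the spread of 2 libraries a group. In the edgeR test the spread of a gene is estimated in part from that of the other genes.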

Additional observations from a re-analysis of the deposited data

How the results depend on the processing

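The count of all genes at an adjusted p-value below 0.05, 0 in edgeR's quasi-likelihood test, was 22 without the low-count filter, 22 with DESeq2, 16 with the replicate block, and 1 (without EV RV replicate 1) to 600 (without EV RV replicate 2) with a library left out. For the members this count was 0 under each alternative other than leaving out a library, where it ranged from 0 to 6, the 6 being without EV RV replicate 2. The labels do not say that a replicate number marks 1 mouse, and the correlation of same-numbered libraries' deviations from their group means was 0.30. The count of members at an unadjusted p-value below 0.05, 3 as reported, was 1 with library-total scaling, 1 with limma on either TPM scale, 6 with the replicate block and 1 to 36 with a library left out. The upper end of that range came without EV RV replicate 2, where EV RV replicate 1, the library that stood apart, was the only one of its group. Shares of all genes at this threshold are not given beside these counts, so the counts do not set the members apart. The median log2 fold change of the members, 0.14, ranged from 0.0035 to 0.32 with a library left out. The number of members above both EV RV libraries (17) was 11 by TPM, 13 to 25 by the other scalings and 19 to 42 with a library left out. The number below (6) was 9 by TPM, 4 to 8 by the other scalings and 7 to 19 with a library left out. Fewer libraries make separation easier, and the counts over all genes under these alternatives are not given here. Library-total scaling moved the median of all genes by 0.12 on the log2 scale, and 42 of the 58 members were higher than that median, as with TMM. Of 279 values of the 31 genes followed, 275 kept their direction under the 9 alternatives that kept all libraries. The 4 that turned were *Eif4g1* at -0.031 (library totals without *Rn45s*), -0.0736 and -0.0739 (limma with pseudocounts of 1 and 0.1) and *Eif5a2* at 0.087 (library totals). With a library left out, 12 of the 31 changed sign, 10 of them without EV RV replicate 1: *Eif1ax* ranged from -0.089 to 0.57, *Eif2s3x* from -0.028 to 0.55, *Eif3j1* from -0.12 to 0.37, *Eif4a2* from -0.077 to 0.49, *Eif4a3* from -0.056 to 0.35, *Eif4e* from -0.0099 to 0.73, *Eif4e2* from -0.025 to 0.18, *Eif4ebp3* from -0.49 to 0.071, *Eif4g1* from -0.032 to 0.049, *Eif4g3* from -0.45 to 0.00505, *Eif5a2* from -0.081 to 0.019 and *Eif6* from -0.18 to 0.42. The cause was not tested. The median SE of the members was 0.20 on the log2 scale, and an SE is not a limit of detection. By the quasi-likelihood test of edgeR, *Eif1b* at 0.46 (SE 0.18) had an unadjusted p = 0.0464, and *Eif4a1* at 0.36 (SE 0.24) had an unadjusted p = 0.19. In the same test both had a Benjamini-Hochberg adjusted p = 0.897. Differences well above 1 SE thus did not pass once all genes tested were taken into account.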

Other observations

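Ratios within a library, chosen after the values were seen, set a factor against its partner without scaling between libraries. The summed TPM of *Eif4ebp1*, *Eif4ebp2* and *Eif4ebp3* over the TPM of *Eif4e* was 2.95 and 1.21 in EV RV against 1.00 and 0.840 in Tox RV. Both Tox RV values were below both EV RV values, and EV RV replicate 1 was far above the rest. *Eif1* over *Eif1b* was 9.65 and 3.93 in EV RV against 2.64 and 2.39 in Tox RV, in the same order. Other pairs kept closer ratios, but all except *Eef1a1* over *Eef2* separated the groups as well. How often ratios of other genes separate the groups was not counted, so these separations do not set the pairs apart. *Eif4a1* over *Eif4a2* was 5.00 and 5.35 in EV RV against 6.04 and 5.67 in Tox RV. *Eef1a1* over *Eef2* was 5.04 and 6.13 in EV RV against 5.65 and 6.07 in Tox RV. *Eif5a* over *Eif5a2* was 202 and 171 in EV RV against 167 and 165 in Tox RV. *Eif1a* over *Eif1ax* was 0.329 and 0.424 in EV RV against 0.519 and 0.428 in Tox RV, apart by a narrow margin. *Eif3j1* over *Eif3j2* was 23.8 and 22.9 in EV RV against 19.4 and 21.6 in Tox RV. The sequences of this last pair are nearly identical, so its ratio is as uncertain as its counts. With 2 libraries a group, no test of a ratio was made.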
